A study of Gallus gallus with 12 samples.

Results

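In chicken embryonic fibroblasts (CEFs), 150 genes were far lower in cells that received a small interfering RNA (siRNA) than in cells that received an expression vector. They were chosen from the 2 control groups. Among 10426 genes with a mean of at least 5 CPM (a count divided by its library total and multiplied by 1000000) in the Control libraries, they had the 150 largest values of the log2 ratio of mean Control CPM to mean NC CPM, with 1 added to each mean. The count table lists 26102 Ensembl gene IDs, and 5 IDs were left out before ranking, of which 3 are in the table. Because Control and NC values chose these genes, the difference between those groups is given as a description with no test.

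RNA was sequenced in 12 libraries of primary CEFs from 9-day-old specific-pathogen-free broiler embryos, in 4 groups of 3 transfected samples each. Control cells received the empty pLVX vector and Over cells the same type of vector carrying the coding sequence of Myoz3 behind the CMV promoter, which is active in most cell types. NC cells received a non-specific siRNA and Inter cells an siRNA against Myoz3. The study's name for the vector lists a ZsGreen1 reporter, which the siRNA groups did not receive. All cells were transfected with Lipofectamine, no group was left untransfected, and every cell came from minced embryo tissue rather than from a clonal line. The siRNAs were dosed in pmol and the vectors in µg, and RNA was extracted after the same interval in all groups.

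CEFs are a mixed primary culture that is mostly fibroblasts. An siRNA is a short RNA duplex that directs the cleavage of matching messenger RNAs, whereas a plasmid vector is double-stranded DNA that has to reach the nucleus to be transcribed. Myoz3, also called calsarcin-3, is a protein of the muscle Z-disc that binds calcineurin and alpha-actinin. Control against NC therefore compares a vector with an siRNA without a change of Myoz3. Inter against NC asks what knockdown did, which the study describes as incomplete, and Over against Control asks what overexpression did.

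Library totals were 21204899 to 23576681 counts in Control, 18300623 to 19773117 in Over, 13291600 to 15969800 in NC and 14261605 to 19804175 in Inter. No symbol was paired with any of the 26102 IDs in the sources used here, so the genes are given by ID or by rank, without roles. For the same reason the level of Myoz3, which would check the group labels, and the defining markers of fibroblasts and of other cell types were not analysed here. Whether vector and siRNA libraries were prepared and sequenced together is not given. The kind of nucleic acid, the ZsGreen1 reporter and any such batch therefore cannot be told apart. The study reports, from quantitative PCR on each library, that Myoz3 was at the intended level except in the third Inter library. It describes weak knockdown in that library, but its sentence on exclusion names the third NC library. It is therefore not certain which library was left out. The knockdown comparison here leaves out Inter 3. Its results are also given with all 3 Inter libraries, with or without NC 3, and with neither Inter 3 nor NC 3.

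The 150 genes took 2.59%, 2.85% and 2.39% of all counts in Control 1, 2 and 3, and 2.45%, 1.96% and 2.06% in Over 1, 2 and 3. In NC 1, 2 and 3 they took 0.113%, 0.110% and 0.0778%, and in Inter 1, 2 and 3 they took 0.0823%, 0.0901% and 0.129%. Every vector library was thus above every siRNA library, while both siRNA groups lay in the same range. In bulk RNA, fewer cells that express a gene and less of its RNA per cell cannot be told apart.

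**Figure D1:**
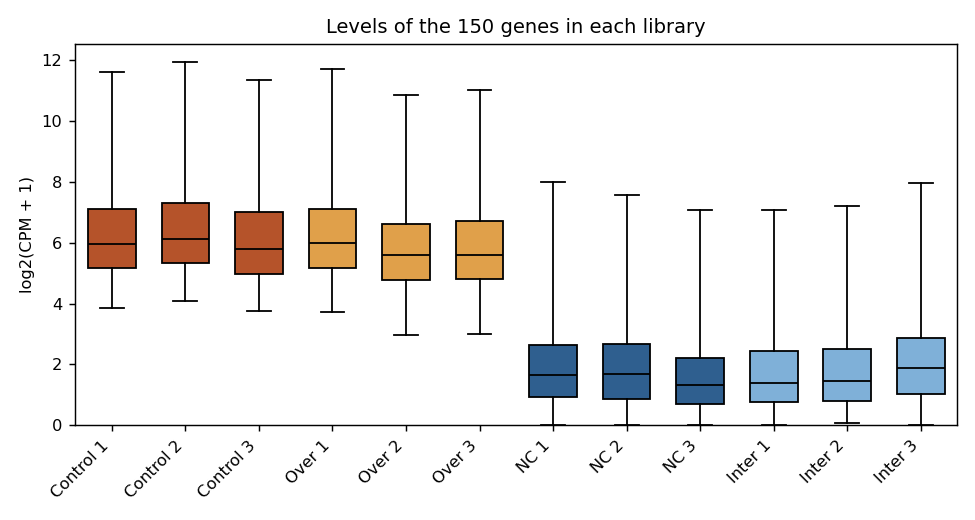
Levels of the 150 genes, as log2(CPM + 1), in each of the 12 libraries. Boxes show the quartiles with the median as a line, and whiskers reach the lowest and highest gene. The median gene lies between 47.2 and 68.9 CPM in the 6 vector libraries and between 1.50 and 2.69 CPM in the 6 siRNA libraries.

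Single genes differed widely in abundance. Mean Control CPM ran from 14.0 to 3204, with a median of 61.5, and mean Over CPM from 8.68 to 2413, with a median of 53.4. Mean NC CPM ran from 0.0209 to 173, with a median of 1.91, and mean Inter CPM from 0.0382 to 133, with a median of 2.05. The vector libraries held ample reads for each gene, with at least 266 counts in every Control library and at least 131 in every Over library. In NC, 3 of the genes had 3 or fewer counts over the 3 libraries and 27 had 4 to 30. In Inter these numbers were 1 and 25.

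By the rule itself, the Control minus NC difference ran from 3.69 to 7.76 on the log2(CPM + 1) scale, with a median of 4.25, and the ratio of mean CPM had a median of 33.8 and was at least 14.1. The lowest ranked genes inside the limit, ranks 149 and 150, both had a value of 3.69, and the first 2 genes outside it had 3.68 and 3.67, so no gap in the values marks the limit. Every Control library was above every NC library for all 150, against 32.8% of the 10384 genes with a mean CPM of at least 5 over the 4 groups, 46.5% of which had every Control library below every NC library. In the opposite direction, the 150 genes highest in NC over Control reached differences of only 1.32 to 3.67, all smaller than those of the present genes.

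The 2 genes with the largest rule value were both abundant in every vector library. ENSGALG00000021627, ranked 1, had 769, 867 and 703 CPM in Control, 647, 657 and 609 in Over, 1.66, 4.20 and 1.94 in NC, and 3.16, 2.68 and 4.17 in Inter. ENSGALG00000042854, ranked 2, had 773, 782 and 789 CPM in Control, 694, 709 and 654 in Over, 4.29, 5.39 and 1.69 in NC, and 3.65, 3.69 and 5.64 in Inter. For both genes the Over libraries were all lower than the Control libraries, and the NC and Inter libraries overlapped. In Over against Inter their fitted log2 fold changes were 7.72 ± 0.14 and 7.44 ± 0.16 (SE), with adjusted p of 9.32e-09 and 1.66e-08 by edgeR's quasi-likelihood test (Benjamini-Hochberg adjusted).

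Over and Inter are the 6 libraries that the rule did not use, so they show the difference afresh. All 150 genes were higher in Over than in Inter, and for all 150 every Over library was above every Inter library, which held for 32.0% of the 10384 genes. The Over minus Inter difference ran from 3.06 to 7.20 on the log2(CPM + 1) scale, with a median of 3.97. The ratio of mean CPM had a median of 26.1 and was at least 10.3. Myoz3 was raised in Over and knocked down in Inter. The Myoz3 change, the kind of nucleic acid, the ZsGreen1 reporter and any batch thus cannot be told apart in this comparison.

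Fitted on the counts of all 14417 genes that passed the low-count filter, all 150 genes were called higher in Over than in Inter at an adjusted p of 0.05. Of all genes tested, 32.6% were called higher and 30.9% lower. The fitted log2 fold changes ran from 3.49 to 8.48 with a median of 4.84, and the adjusted p of edgeR's quasi-likelihood test (Benjamini-Hochberg adjusted) from 2.14e-09 to 0.000117. Of the 150, 113 had enough counts to pass the filter in Inter as well, with fold changes of 3.49 to 7.72, and 37 passed only through their level in Over, where a difference was bound to appear. Without Inter 3 all 150 were called higher again, where 34.0% of all genes were called higher and 29.7% lower, and the median fold change was 5.13 on the log2 scale. These p-values set the group difference against the spread between transfected samples, and the genes are not replicates of a condition.

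The largest fitted changes belonged to genes with almost no reads in the siRNA libraries, which are among the 37 that passed the filter only through Over. ENSGALG00000042828, ranked 84, had 314, 283 and 280 counts in Over 1, 2 and 3 and 0, 1 and 1 counts in Inter, a depth-scaled ratio of 385 with a 95% counting interval of 106 to 3183. It had 19.0, 19.8 and 16.1 CPM in Control and 1 count in each NC library. ENSGALG00000042590, ranked 33, followed with 532, 648 and 588 counts in Over and 1, 4 and 0 in Inter, a ratio of 310 with an interval of 133 to 957. Such intervals cover counting error only, and both genes were at the edge of detection in siRNA-treated cells. At the other end, the gene ranked 117 had 123, 75.7 and 75.5 CPM in Over and 6.03, 7.42 and 13.3 in Inter, and its fitted change of 3.49 ± 0.31 (SE) was the smallest of the 150. Even there the groups stood far apart.

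**Figure D2:**
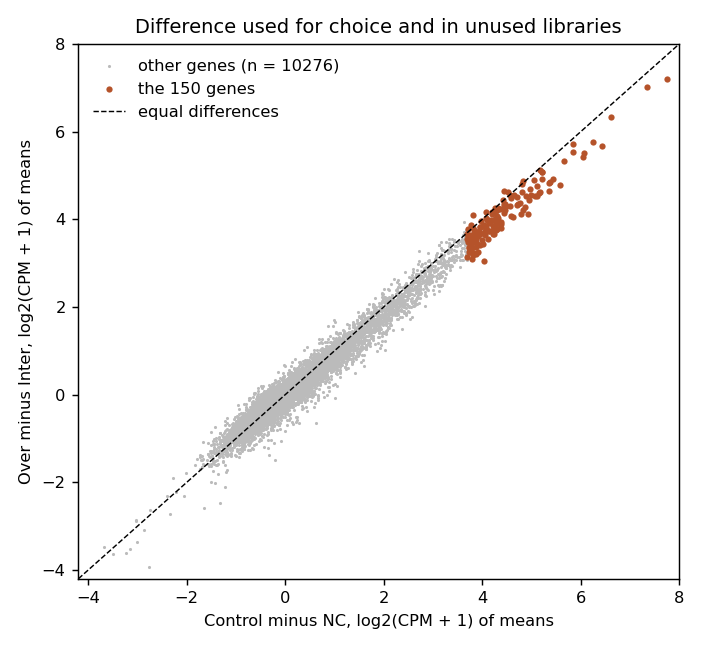
Difference between group means in log2(CPM + 1) for Control minus NC, which chose the genes (horizontal), and for Over minus Inter, in libraries that the choice did not use (vertical). Red points are the 150 genes, grey points the other ranked genes, and the dashed line marks equal differences. All 150 red points lie at or above 3.06 on the vertical axis, and 139 of them lie below the dashed line.

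Ranking by Over over Inter gave nearly the same list. Here 10384 genes with a mean Over CPM of at least 5 were ranked by Over over Inter. The set of 10384 genes by mean CPM over the 4 groups was defined differently. Of the 150 genes, 131 were also among the 150 largest by Over over Inter. All 150 were among the 300 largest, and the lowest placed was 238th. The 10 genes ranked first by Control over NC were also the 10 first by Over over Inter. Across the 150 genes, which are not independent of each other, the 2 differences had Pearson's r of 0.95 and Spearman's rho of 0.91. The difference was smaller in Over minus Inter for 139 genes. Over all 150, Over minus Inter less the rule value had a median of -0.29 on the log2(CPM + 1) scale. Choosing on Control and NC leans the genes towards a larger difference there. How much of the shift this makes up was not tested.

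The separation can also be described library by library over all 4 groups. Control and NC chose the genes, so the separation of those 6 libraries is largely set by the choice. For all 150 genes the lowest of the 6 vector libraries was above the highest of the 6 siRNA libraries, against 27.9% of 10384 genes. The ratio between those 2 libraries ran from 5.69 to 190 with a median of 15.6. The size of the difference went with abundance mainly at the top and the bottom of the list: median Control CPM was 182 in ranks 1 to 30, 68.5 in ranks 31 to 60, 52.6 in ranks 61 to 90, 54.8 in ranks 91 to 120 and 28.5 in ranks 121 to 150. The 1 added to each mean limits the rule value of genes with low Control CPM, so part of this pattern is set by the rule.

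Within the vector groups, levels were slightly lower with Myoz3 overexpression. Over minus Control ran from -0.70 to 0.24 on the log2(CPM + 1) scale, with a median of -0.26 against 0.03 over the 10384 genes, and 142 of the 150 genes were below 0. Every Over library was below every Control library for 44 genes, against 10.5% of the 10384 genes, and above for 2 genes, against 13.0%. Control libraries chose these genes by high values, which alone leans them towards lower values in Over, so these counts are a description.

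No member of the 150 passed an adjusted p of 0.05 in Over against Control by edgeR's quasi-likelihood test (Benjamini-Hochberg adjusted), where 0.0142% of 14128 genes were called higher and 0.0142% lower. The fitted log2 fold changes ran from -0.76 to 0.23 with a median of -0.28, and the lowest adjusted p was 0.0715 in edgeR's test. At an unadjusted p of 0.05, 80 genes were lower and 1 was higher, where 10.9% and 7.67% of all genes tested were. The study itself used edgeR's likelihood ratio test. With that test 23 genes were called lower and 0 higher here, where 2.12% and 0.807% of all genes were. With DESeq2 33 genes were called lower and 0 higher, where 2.08% and 0.672% were. DESeq2 gave 4109 of the 14128 genes no adjusted p, so they could not be called, and these shares still count them. Leaving out Over 1 moved the count most, to 95 called lower and 1 higher with the quasi-likelihood test, where 9.46% and 3.59% of all genes were called. All 23 genes of the likelihood ratio test were among the 33 of DESeq2, and all 33 were among the 95. These lists share libraries, and the choice by high Control values leans the genes towards lower values in Over, so counts and overlap are a description. Without Over 1, both other Over libraries were below every Control library for 112 genes, against 22.8% of the 10384 genes, and above for 5, against 32.4%.

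By edgeR's quasi-likelihood test with all 6 libraries, the gene closest to a call was ranked 4. It had 262, 285 and 267 CPM in Control and 203, 196 and 201 in Over. The likelihood ratio test (adjusted p 8.06e-05) and DESeq2 (adjusted p 2.58e-05) called it lower. All 3 Over libraries were below all 3 Control libraries, and its fitted log2 fold change was -0.46 ± 0.07 (SE). The largest fall belonged to the gene ranked 100, with 25.9, 20.3 and 17.5 CPM in Control and 12.7, 10.5 and 14.9 in Over. It was called lower by the likelihood ratio test (adjusted p 0.00289) and by DESeq2 (adjusted p 0.00126). Without Over 1, the quasi-likelihood test also called the genes ranked 4 and 100 lower. Opposite to most, the gene ranked 128 had 37.7, 37.4 and 38.6 CPM in Control and 41.6, 47.1 and 46.0 in Over. The gene ranked 79 also had all Over libraries above all Control libraries, at 42.1, 40.5 and 40.4 against 39.6, 40.0 and 35.4 CPM, a gap smaller than the spread within Control. Neither passed the adjusted threshold with all 6 libraries. Without Over 1, the gene ranked 128 was called higher, at a log2 fold change of 0.27 and an adjusted p of 0.0343 by edgeR's quasi-likelihood test.

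Within the siRNA groups, the outcome of the knockdown comparison depended on which libraries entered it. Inter 1 and 2 were compared with NC 1 to 3, and 125 of the 150 genes passed the low-count filter. None of them was called in this set of libraries by edgeR's quasi-likelihood test (Benjamini-Hochberg adjusted), where 0.0986% of 14194 genes were called higher and 0.127% lower, and their lowest adjusted p was 0.119. At an unadjusted p of 0.05, 3 were higher and 16 lower, where 5.5% and 9.29% of all genes tested were. The likelihood ratio test called 1 gene higher and 3 lower, where 0.662% and 1.74% of all genes were called. DESeq2 called 1 lower and 0 higher, where 1.07% and 0.31% were. It gave 4954 of the 14194 genes no adjusted p, so they could not be called, and these shares still count them. Whether any of the 125 were among them was not examined. Both Inter 1 and 2 were above every NC library for 14 of the 150, against 23.4% of the 10384 genes, and below for 17, against 12.8%.

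The direction of the knockdown comparison changed with the libraries used. With Inter 1 and 2 the fitted log2 fold changes had a median of -0.20, with 92 genes below 0 and 33 above. With all 3 Inter libraries the median was 0.05 and 0 genes were called by edgeR's quasi-likelihood test, as over all genes tested (0.0%). At an unadjusted p of 0.05 in that fit 2 were higher and 1 lower, where 2.25% and 2.79% of all genes were. With all 3 Inter libraries and without NC 3, the median was -0.14 and 0 genes were called by the same test (0.0% of all genes). At an unadjusted p of 0.05, 1 of the 126 genes tested there was higher and 2 lower, where 371 and 511 of all 14158 genes were. Without NC 3, and with Inter 1 and 2, 2 genes were called higher and 19 lower, where 2.51% and 7.19% of all genes were. On the log2(CPM + 1) scale with all 3 Inter libraries, the difference ran from -0.38 to 0.49 with a median of 0.06. All 3 Inter libraries were above every NC library for 9 of the 150, against 8.2% of the 10384 genes, and below for 3, against 3.68%. NC libraries chose these genes by low values, which leans them towards higher values in Inter.

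**Figure D3:**
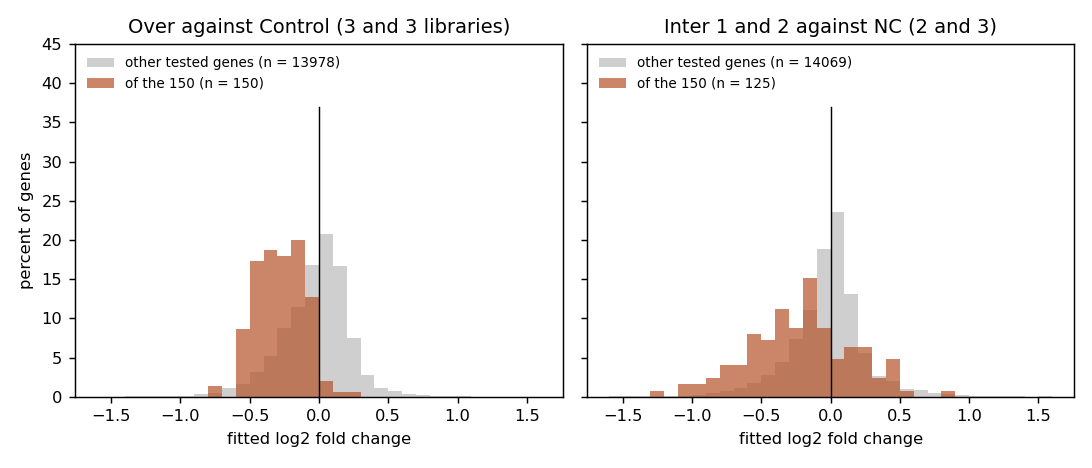
Fitted log2 fold changes for Over against Control (left) and Inter 1 and 2 against NC (right), as the percent of the 150 genes that passed the low-count filter (red) and of the other genes tested (grey) in bins of equal width. Values beyond the axis are drawn in the outermost bins. The red bars centre at -0.28 on the left and -0.20 on the right, and the grey bars near 0.

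The most abundant of the genes, ranked 81, showed how far single libraries differed. It had 3093, 3915 and 2604 CPM in Control, 3317, 1839 and 2084 in Over, 256, 187 and 76.1 in NC, and 75.3, 78.2 and 246 in Inter. Control 2, Over 1, NC 1 and Inter 3 were each the highest of their group, and Inter 3 was close to NC 1 while Inter 1 and 2 were close to NC 3. Its fitted log2 fold change in Inter 1 and 2 against NC was -1.21 ± 0.35 (SE), with an adjusted p of 0.159 by edgeR's quasi-likelihood test. It was called lower by edgeR's likelihood ratio test, at an adjusted p of 0.0287, and without NC 3 by the quasi-likelihood test, at a log2 fold change of -1.56 and an adjusted p of 1.96e-06. The gene ranked 106 had 4.66, 4.88 and 4.07 CPM in NC and 2.10, 2.83 and 6.09 in Inter, so that it too was lower in Inter 1 and 2 and highest in Inter 3. By contrast, the gene ranked 131 had 57.1, 67.1 and 61.0 CPM in NC and 79.7, 76.4 and 60.9 in Inter, with Inter 3 the lowest library of its group. Neither was called by the quasi-likelihood test with NC 1 to 3. The gene ranked 106 was called lower and the gene ranked 131 higher by the likelihood ratio test. Both calls were also made by the quasi-likelihood test without Inter 3 and NC 3.

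Such movement was shared by most of the 150 genes. Control 2 was the highest Control library for 127 of them, Over 1 the highest Over library for 131, and Inter 3 the highest Inter library for 112. Over the 10384 genes these shares were 31.3%, 32.1% and 35.7%. NC 3 was the lowest NC library for 102 of the 150, against 39.3% of the 10384 genes. All 4 conditions held together for 76 of the 150, which is 50.7%, and for 11.8% of the 10384 genes. The pattern was read from these libraries and describes them only.

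**Figure D4:**
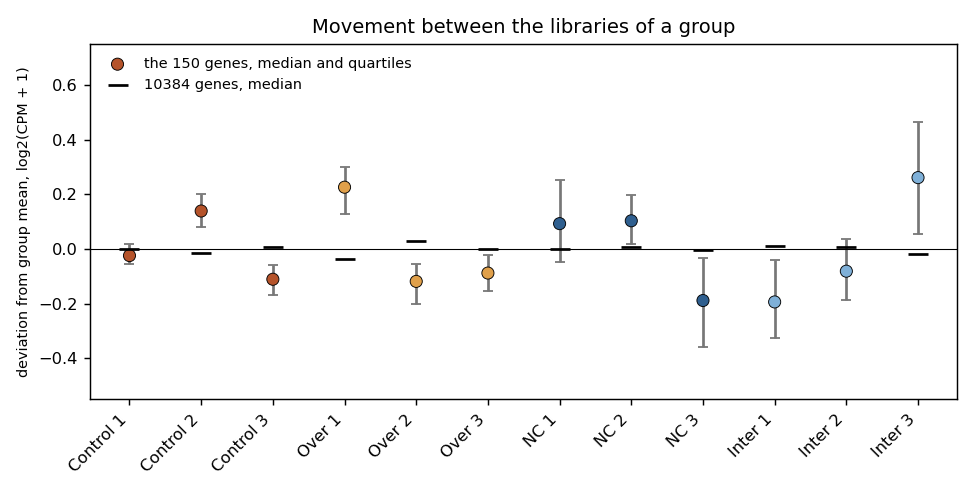
Deviation of each library from the mean of its group in log2(CPM + 1), for the 150 genes (points at the median, bars from the lower to the upper quartile) and for all 10384 genes (black dashes, median). The medians of the 150 are 0.14 in Control 2, 0.23 in Over 1, 0.26 in Inter 3, -0.19 in NC 3 and -0.19 in Inter 1, while the dashes stay near 0.

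The median fitted log2 fold changes were -0.28 in Over against Control and -0.20 in Inter 1 and 2 against NC. These were fitted without the 1 that was added to CPM for the shifts between libraries. That 1 shrinks shifts at the low levels of NC and Inter, so the sizes are not directly comparable there. The median coefficient of variation between libraries of a group was 10.2% in Control and 15.5% in Over, against 7.08% and 7.46% over the 10384 genes. In NC and Inter it was 29.0% and 36.3%, against 6.73% and 7.79%, and counting error alone gave a median of 18.9% and 17.1% for the 150 genes there. The part of depth, RNA quality or culture in these shifts was not tested.

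A feature that the rule did not use was the Ensembl ID itself. New gene models generally receive higher ID numbers than those of earlier annotation releases. Of the 150 genes, 137 (91.3%) fell in the upper part when the 10426 ranked genes were divided at the median ID number, against 49.4% of the 10276 other ranked genes. The number of the 150 in successive deciles by ID number was 3, 0, 6, 3, 1 and 6 in the lower 6 deciles and 34, 29, 35 and 33 in the upper 4.

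**Figure D5:**
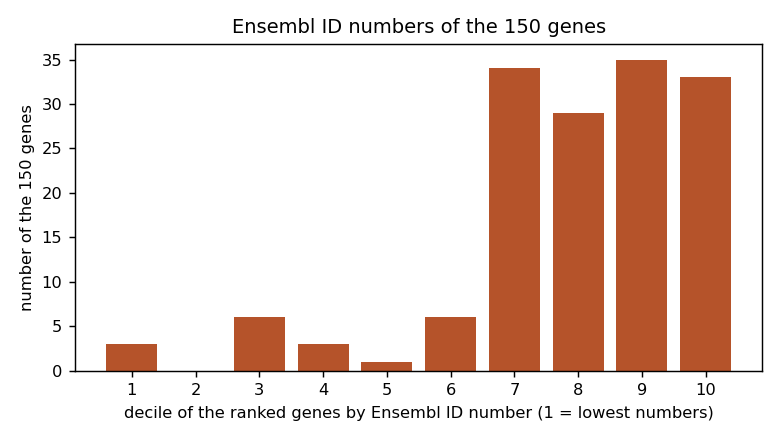
Number of the 150 genes in each decile of the 10426 ranked genes ordered by the number in their Ensembl ID, from the lowest numbers (1) to the highest (10). Counts are 6 or fewer in each of the lower 6 deciles and 29 to 35 in each of the upper 4.

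The 13 genes with low ID numbers had median differences similar to those of the rest. The rule sets a floor under Control minus NC for all 150, so similar values there follow partly from the choice. For the 13, the Control minus NC difference had a median of 4.49 on the log2(CPM + 1) scale, against 4.24 for the 137. Their Over minus Inter difference, from libraries outside the choice, had a median of 4.31 against 3.96. They were more abundant, with a median of mean Control CPM of 196 against 58.4. Among the ranked genes that remained, the median Control minus NC difference was -0.01 for the 5076 with high ID numbers and -0.18 for the 5200 with low ID numbers. Those are rule values with the 150 largest taken out, so they are a description. In Over minus Inter the same medians were -0.004 and -0.15.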

How the data were processed

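RNA from 12 libraries of transfected chicken embryonic fibroblasts was sequenced on Illumina instruments. The authors aligned reads to galGal5 and deposited 1 table of raw counts per Ensembl gene. The submitters' processing notes name TopHat2 2.0.12, Bowtie2 2.2.3 and HTSeq 0.6.1. For the annotation release, the strand setting and the counting mode, the value is not given in the sources used. How reads from overlapping genes or near-identical copies were counted is therefore not known. The methods give 2 read lengths without assigning them to libraries. The table held 0 columns of other samples. Of 26102 IDs, 0 could be paired with a symbol, so gene lists and cell type markers written by symbol were not used.

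The members and lists were chosen with earlier results of these data known. Tests used edgeR 4.0.16 in R 4.3.3 (filterByExpr defaults, TMM scaling, quasi-likelihood test, Benjamini-Hochberg adjustment over all genes tested, threshold 0.05). Values marked SE are the absolute fitted log2 fold change divided by the square root of the quasi-likelihood F statistic. They are approximate, above all for large changes. Ratios of counts carry exact 95% intervals. Replicate pairs differed by more than counting noise, with chi-square per degree of freedom from 3.39 to 17.1. By the rule for named genes, the genes first in rank and those at the limit were taken. So were the called genes with the largest change in each comparison and the genes with the smallest change in Over against Inter. Since IDs had no symbols, at most 2 IDs per direction are printed. The genes ranked 79, 81, 100, 106, 128 and 131 are outside that rule and were added after their values were seen. Alternatives were the likelihood ratio test, DESeq2 1.42.0, other scalings and filters, a replicate block, all libraries in 1 fit, and leaving out each library. The fits were also run on simulated counts in which few genes changed. Many genes were called in Over against Inter, so that run does not stand for this comparison.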

Additional observations from a re-analysis of the deposited data

How the results depend on the processing

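All 150 genes were called higher in Over than in Inter under every alternative run. Of all genes tested, 44.6% to 67.0% were called there in either direction. With the default filter, 37 of the 150 passed only through their level in Over, where a difference was bound to appear. Scaling by library totals moved the median of all genes in that comparison from -0.03 to -0.16 and that of the 150 from 4.84 to 4.71. In Over against Control, the quasi-likelihood test called 0 (0.0283% of all genes). There the likelihood ratio test called 23 (2.93%), DESeq2 33 (2.75%), library totals 1 (0.0708%) and no low-count filter 29 (1.53%). Leaving out 1 library gave 0 to 96, with 96 without Over 1 (13.1% of all genes). In Inter against NC, the quasi-likelihood test also called 0 (0.225% of all genes). There the likelihood ratio test called 4 (2.4%), DESeq2 1 (1.38%) and no filter 10 (3.92%). The DESeq2 shares in both comparisons also count genes that it gave no adjusted p. Leaving out 1 more library besides Inter 3 gave 0 to 21, with 21 without NC 3 (9.7% of all genes). With all 3 Inter libraries and without NC 3, 0 were called (0.0% of all genes). With the replicate block, 33 were called in Inter against NC (15.8% of all genes), 0 in Over against Control (0.0637%) and 150 in Over against Inter (55.6%). Same-numbered libraries did not deviate together (correlations -0.34 to 0.07). How the libraries were numbered is not given, and 3 libraries per group are too few to decide whether the numbers pair the samples. A block with all 3 Inter libraries, an alternative chosen after seeing the data, called 0 (0.0% of all genes). In the block fit without Inter 3, NC 3 stood alone in its block and gave no information on the group difference. Among the 150, the genes tested had a median log2 fold change of -0.36 in that fit. Without Inter 3, NC 3 and the block, the median was also -0.36. The cause of the remaining differences was not tested. With a pseudocount of 0.25, 110 of the 150 genes stayed in the list, and the median differences were 4.82 for Control minus NC and 4.44 for Over minus Inter. TMM-scaled CPM kept 147 and leaving out 1 library 142 to 148. Low counts limit the siRNA groups most, where 30 genes in NC had 30 or fewer counts in all. The rule chose genes that are low in NC, and library totals were also smaller there than in Control.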
